A study of Homo sapiens with 12 samples.

Results

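A group of 21 genes was all but undetected in HEC-1A cells cultured with the vehicle DMSO and had reads in every HEC-1A culture with AG-205. The genes were selected among the 58735 genes of the counts table as those with at most 9 reads summed over the 3 HEC-1A libraries with DMSO and at least 8 reads in each of the 3 HEC-1A libraries with AG-205. These counts were met by 24 genes, of which NPC1L1, IL21R and GAS6-AS1 were left out by name. HEC-1A is an epithelial line from an endometrial adenocarcinoma, and T-HESC is a line of endometrial stromal cells immortalised with telomerase. Both are single lines, so that the libraries of a group are cultures of the same cells. Each line received AG-205, a small molecule sold as an inhibitor of the heme-binding protein PGRMC1, at 15 µM or only DMSO, and was harvested after 32 h. RNA was sequenced from 3 libraries per line and condition, 12 in all. Because the HEC-1A counts chose the genes, their HEC-1A levels are described here without a test, and the T-HESC libraries, which the selection did not use, are the samples in which a change could be tested.

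Genes with hardly any transcripts in a cell type are often genes of other tissues, kept low by closed chromatin or by the lack of an activator. Several protein-coding genes of the group are best known from such tissues. PRDM16 is a zinc-finger regulator known for its part in brown fat, CEND1 is a neuronal protein linked to exit from the cell cycle, FFAR1 is a receptor for long-chain fatty acids of the pancreatic beta cell, and S1PR4 is a sphingosine-1-phosphate receptor of lymphoid cells. GAS6, a secreted vitamin K-dependent ligand of the receptor kinases TYRO3, AXL and MERTK, is made by many stromal cells.

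Total counts per HEC-1A library were 7168542 to 12966177 for AG-205 and 9762159 to 10974428 for DMSO, and those per T-HESC library were 12800067 to 14631822 and 11440359 to 15178276. The smallest library, AG-205 replicate 3 of HEC-1A, weighed on the selection, since 17 of the 21 genes had their lowest AG-205 count in it alone. AG-205 replicate 1 of T-HESC had the lowest mean correlation with its group, r = 0.936 across genes on the log2 scale, against 0.952 and 0.96 for replicates 3 and 2 and at least 0.98 in the other groups. The 11 epithelial markers examined summed to 2160 to 2350 CPM in HEC-1A with DMSO and to 3140 to 3160 CPM under AG-205. In T-HESC with DMSO they summed to 214 to 313 CPM. The 11 stromal markers summed to 25700 to 32100 CPM in T-HESC with DMSO and to 15600 to 26900 CPM under AG-205. As sums, each line held the markers of its label, but not every single marker did so. MUC1 had 2, 4 and 5 reads in HEC-1A with DMSO and 115, 56 and 34 in T-HESC with DMSO. KRT19 had 1259, 1214 and 1120 against 1466, 1276 and 1028, and S100A4 had 753, 678 and 647 against 823, 700 and 559. CPM are counts scaled to the TMM-adjusted library totals and expressed per 1000000. The sums of marker lists, here and below, are the exception, since they were scaled to the raw library totals.

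The promoters are shown because the genes were selected for appearing together, and their start sites can be compared by eye. RefSeq promoters, from 250 bases before to 50 bases after a start site, were found by symbol for 11 of the 21 genes, as 14 sequences. The 6 below are from GRCh38.p14, 5′ to 3′ on the strand of the gene, with a matched motif in capitals. TP53INP2 holds the cAMP element, RCAN2 and FAM88F the AP-1 element, CGREF1 the E-box, RNF223 the antioxidant element, and CEND1 none of the motifs searched.
TP53INP2 (chr20:34704094-34704393, plus strand): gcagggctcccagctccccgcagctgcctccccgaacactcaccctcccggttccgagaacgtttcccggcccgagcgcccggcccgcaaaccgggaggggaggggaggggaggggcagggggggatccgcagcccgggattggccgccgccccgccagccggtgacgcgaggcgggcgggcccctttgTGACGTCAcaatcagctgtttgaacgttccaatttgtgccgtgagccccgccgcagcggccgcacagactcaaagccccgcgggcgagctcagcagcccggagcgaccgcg
RCAN2 (chr6:46325602-46325901, minus strand): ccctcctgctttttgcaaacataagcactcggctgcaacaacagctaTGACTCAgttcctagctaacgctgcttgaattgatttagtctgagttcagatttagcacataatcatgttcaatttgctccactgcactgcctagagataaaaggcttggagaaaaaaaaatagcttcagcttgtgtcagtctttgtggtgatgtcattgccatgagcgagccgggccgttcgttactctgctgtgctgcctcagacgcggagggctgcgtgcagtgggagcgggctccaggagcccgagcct
FAM88F (chr9:62532312-62532611, plus strand): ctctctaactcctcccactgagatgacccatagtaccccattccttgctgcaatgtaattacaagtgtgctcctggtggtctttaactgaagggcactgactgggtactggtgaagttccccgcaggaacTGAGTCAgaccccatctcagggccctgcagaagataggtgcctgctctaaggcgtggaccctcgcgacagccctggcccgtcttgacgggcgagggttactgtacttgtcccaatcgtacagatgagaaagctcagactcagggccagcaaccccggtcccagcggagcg
CGREF1 (chr2:27119079-27119378, minus strand): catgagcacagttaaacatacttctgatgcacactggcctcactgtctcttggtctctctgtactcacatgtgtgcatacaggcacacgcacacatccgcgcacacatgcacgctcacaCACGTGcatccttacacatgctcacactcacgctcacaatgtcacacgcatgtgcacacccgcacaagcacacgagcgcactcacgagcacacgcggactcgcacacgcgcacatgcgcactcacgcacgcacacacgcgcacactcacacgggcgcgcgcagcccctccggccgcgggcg
RNF223 (chr1:1074257-1074556, minus strand): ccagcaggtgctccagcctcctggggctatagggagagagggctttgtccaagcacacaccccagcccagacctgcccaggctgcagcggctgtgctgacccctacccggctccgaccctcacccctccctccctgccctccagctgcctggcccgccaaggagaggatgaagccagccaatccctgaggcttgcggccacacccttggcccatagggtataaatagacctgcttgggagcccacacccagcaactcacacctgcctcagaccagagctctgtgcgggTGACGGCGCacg
CEND1 (chr11:790041-790340, minus strand): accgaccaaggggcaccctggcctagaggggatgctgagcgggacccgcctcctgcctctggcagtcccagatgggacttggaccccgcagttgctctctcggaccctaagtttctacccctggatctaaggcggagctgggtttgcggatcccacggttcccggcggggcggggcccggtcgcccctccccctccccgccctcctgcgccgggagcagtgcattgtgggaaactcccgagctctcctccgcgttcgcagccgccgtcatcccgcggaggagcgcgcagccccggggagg

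No motif was common to the group. The cAMP element TGACGTCA stood 61 bases before the start of TP53INP2 and was held by 1.85% of the 35116 promoters of the table. The AP-1 element TGANTCA was in 2 of the 14 sequences, 203 bases before a start of RCAN2 and 120 bases before that of FAM88F, and in 7.71% of all promoters. The antioxidant element TGACNNNGC was in RNF223, 39 bases after the start, and in another promoter of RCAN2, and in 13.3% of all. The E-box CACGTG was in CGREF1 and in 7.26% of all. TCACNCCAC, the element of the sterol regulators SREBP, and TGATGNAA, that of ATF4, were in 0 of the 14 sequences and in 1.13% and 3.62% of all promoters. Both strands were searched, and a sequence can match the AP-1, antioxidant and cAMP elements with some of the same letters. The GC content of the 14 sequences had a median of 63.0%, against 58.7% for all promoters, and ranged from 49.0% in FFAR1 to 73.0% in TP53INP2.

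The group held several gene types. By GENCODE 44 it had 12 protein-coding genes, 6 long non-coding RNAs, 2 transcripts of the class TEC (models that await experimental support) and the unprocessed tryptase pseudogene TPSP2. Protein-coding genes made up 57.1% of the group and 25.2% of the 10221 annotated genes with 1 to 9 reads in HEC-1A with DMSO, long non-coding RNAs 28.6% and 35.5%, and TEC transcripts 9.52% and 2.46%. The 10221 genes were not matched to the group in read level, and no AG-205 reads were required of them. The genes lay on 14 chromosomes, with 3 each on chromosomes 1 and 6, 2 each on chromosomes 2, 11 and 19, and 1 on each of the others. Of all genes, 42219 had at most 9 reads in HEC-1A with DMSO, 31883 of them none, and the 21 genes were 0.203% of the 10336 genes with 1 to 9 reads. Each of the 21 had a few DMSO reads, 3 to 9 in sum with a median of 7, and no single DMSO library held more than 5. The mirrored selection in HEC-1A, at most 9 reads with AG-205 and at least 8 in each DMSO library, found 0 genes.

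In HEC-1A with AG-205 the genes reached low levels. In bulk RNA, more cells with a transcript and more transcripts per cell cannot be told apart. Their summed reads with AG-205 ranged from 27 to 99, with a median of 42, and their mean levels from 0.767 to 2.78 CPM, with a median of 1.2 CPM, while the median gene tested in HEC-1A stood at 22.2 CPM. Together the 21 genes summed to 28.1, 31.8 and 29.2 CPM in the AG-205 libraries and to 4.28, 3.43 and 4.31 CPM in the DMSO libraries. The ratio of the pooled reads, scaled to library size, ranged from 3.31 for S1PR4 to 24.9 for PRDM16, with a median of 6.59. The coefficient of variation over the AG-205 libraries ranged from 4.16% for SCTR-AS1 to 57.7% for PLD5P1, with a median of 24.0%. The highest AG-205 level was in replicate 1 for 5 genes, in replicate 2 for 7 and in replicate 3 for 9, under a selection that asked for reads in every AG-205 library and the same minimum in the smallest one. The plot of HEC-1A levels by library shows the gap between the conditions, which the selection itself fixes.

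**Figure D1:**
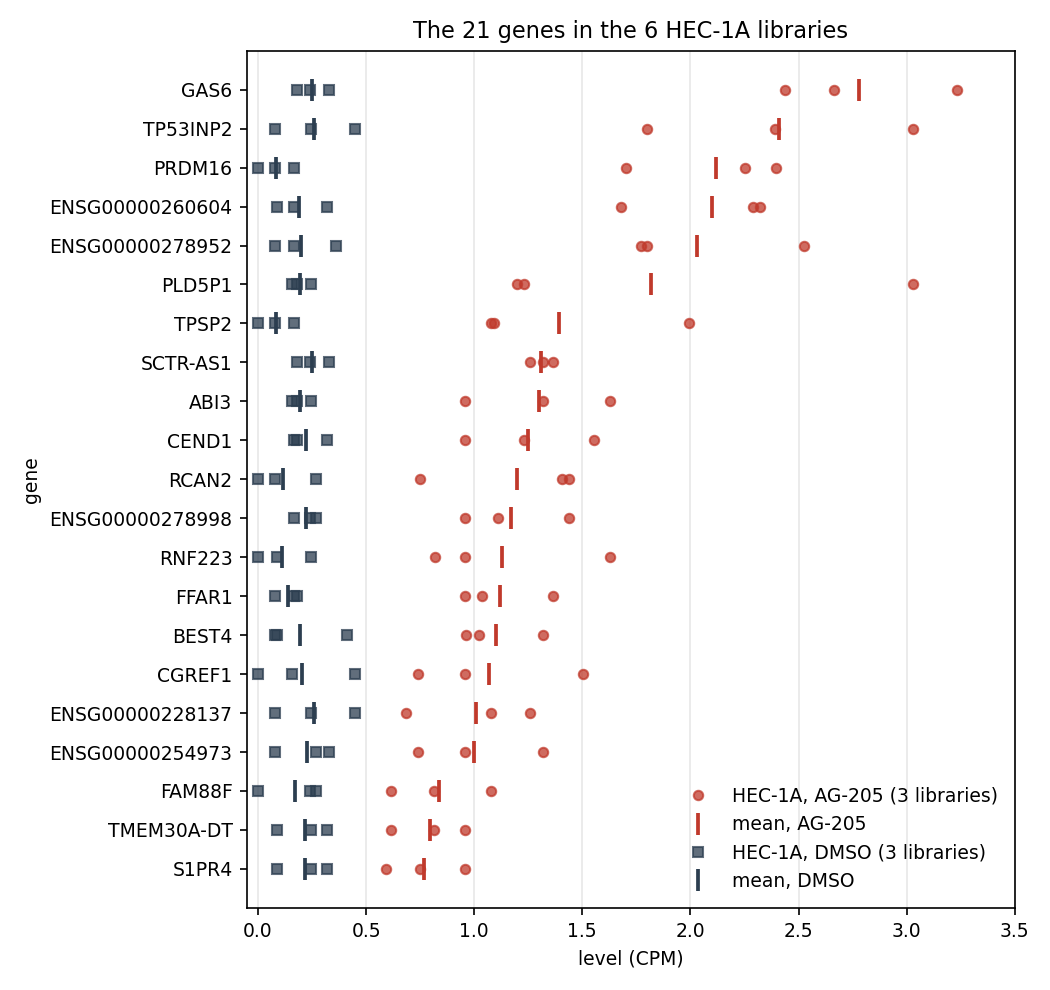
Level of each of the 21 genes in the 6 HEC-1A libraries in CPM, with circles for the 3 AG-205 libraries, squares for the 3 DMSO libraries and vertical ticks for the means. Genes are sorted by their AG-205 mean, without correction for length. The AG-205 means run from 0.767 to 2.78 CPM, and the conditions do not overlap for any gene because the genes were chosen on these counts.

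The secreted ligand GAS6 (chr13:113820549-113864076, minus strand) had 4, 3 and 2 reads in the DMSO libraries, in the order of the replicate numbers, and 39, 33 and 27 reads with AG-205. Its level was 0.249 ± 0.0752 CPM under DMSO and 2.78 ± 0.41 CPM under AG-205 (SD, n = 3), a pooled ratio of 10.8 with a 95% interval from 5.46 to 24.3. Intervals of pooled ratios are exact and cover counting error only. They are no test, since the genes were chosen on these reads, a choice that favours large ratios. GAS6 shares 7.0% of its exon length with the antisense gene GAS6-AS1, and how the counting treated strand is not given in the sources used here, so reads from that stretch could belong to either gene.

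TP53INP2 (chr20:34704339-34713439, plus strand), a protein of autophagy that also acts in the nucleus, had 3, 1 and 5 reads with DMSO and 35, 41 and 15 with AG-205. Its levels were 0.258 ± 0.185 CPM under DMSO and 2.41 ± 0.617 CPM under AG-205 (SD, n = 3), a ratio of 9.92 (95% interval 5.0 to 22.4). The brown-fat regulator PRDM16 (chr1:3069168-3438621, plus strand) had 2, 1 and 0 reads with DMSO and 33, 23 and 20 with AG-205. Its ratio of 24.9 was the largest of the group, with an interval from 8.19 to 123 because it rests on 3 DMSO reads. All 3 AG-205 libraries of each of these genes were above the DMSO libraries, a gap that the selection all but fixed.

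ABI3 (chr17:49210411-49223225, plus strand), an adaptor protein of the Abi family known from blood cells and microglia, had 3, 2 and 2 reads with DMSO and 14, 22 and 11 with AG-205, a ratio of 6.59 (95% interval 2.96 to 17.3). The neuronal gene CEND1 (chr11:787115-790113, minus strand) had 2, 4 and 2 reads with DMSO and 18, 21 and 8 with AG-205, a ratio of 5.76 (2.7 to 14.1). RCAN2 (chr6:46220736-46491972, minus strand), which regulates the phosphatase calcineurin, had 0, 1 and 3 reads with DMSO and 11, 19 and 12 with AG-205, a ratio of 10.3 (3.74 to 39.6). The AG-205 libraries of these genes differed among themselves by about as much as those of the rest of the group, with coefficients of variation of 25.8%, 23.8% and 32.3%.

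The group also held 2 receptors and a channel. The fatty acid receptor FFAR1 (chr19:35347902-35353864, plus strand) had 2, 1 and 2 reads with DMSO and 20, 14 and 8 with AG-205. The lymphoid receptor S1PR4 (chr19:3172346-3180332, plus strand) had 3, 4 and 1 reads with DMSO and 11, 8 and 8 with AG-205, and its ratio of 3.31 (95% interval 1.46 to 8.43) was the smallest. BEST4 (chr1:44783585-44788170, minus strand), a bestrophin anion channel that marks a type of gut epithelial cell, had 5, 1 and 1 reads with DMSO and 15, 13 and 11 with AG-205. For each of the 3, every AG-205 library held more reads than any DMSO library, which the selection all but fixed.

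CGREF1 (chr2:27098889-27119128, minus strand), a secreted protein with EF-hand motifs, had 0, 2 and 5 reads with DMSO and 22, 10 and 8 with AG-205, so that its highest DMSO library came closer in raw reads to its lowest AG-205 library than for any other gene of the group. RNF223 (chr1:1070967-1074306, minus strand), a RING-finger protein, had 3, 0 and 1 reads with DMSO and 12, 22 and 8 with AG-205.

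PLD5P1 (ENSG00000283930, chr10:38094368-38360098, plus strand) is annotated as protein-coding and spans several genes. It had 3, 2 and 2 reads with DMSO and 18, 41 and 10 with AG-205, the most uneven AG-205 levels of the group. Genes of the same strand share 51.9% of its exon length, among them HSD17B7P2, a pseudogene of the cholesterol enzyme HSD17B7. HSD17B7P2 was itself higher in HEC-1A with AG-205, at 7.51 ± 1.02 CPM against 1.36 ± 0.222 CPM (SD, n = 3; log2 fold change 2.46, SE 0.214, adjusted p = 1.15e-05, edgeR quasi-likelihood test, Benjamini-Hochberg). The part of these shared exons in the PLD5P1 count was not tested.

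Among the non-coding genes, the long non-coding RNA ENSG00000260604 (chr6:3904920-3912072, minus strand) had 2, 4 and 1 reads with DMSO and 34, 31 and 14 with AG-205, a ratio of 11.1 (95% interval 5.13 to 28.4). The TEC transcript ENSG00000278952 (chr11:65118310-65119111, plus strand) had 2, 1 and 4 reads with DMSO and 37, 24 and 15 with AG-205, a ratio of 10.7 (4.93 to 27.4). The other TEC transcript, ENSG00000278998 (chr7:155222903-155223851, plus strand), had 2, 3 and 3 reads with DMSO and 14, 15 and 12 with AG-205. None of these 3 genes shares an exon stretch with another gene of GENCODE 44.

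TPSP2 (chr16:1286351-1288837, minus strand), a pseudogene of the mast cell tryptases, had 2, 1 and 0 reads with DMSO and 16, 27 and 9 with AG-205, a ratio of 17.0 (95% interval 5.51 to 85.1). Its count is uncertain where reads also match a tryptase gene. SCTR-AS1 (chr2:119476428-119487346, plus strand) lies opposite the secretin receptor gene SCTR and had 4, 3 and 2 reads with DMSO and 20, 17 and 11 with AG-205. SCTR itself was not called in HEC-1A (log2 fold change 1.06, SE 0.572, adjusted p = 0.27, edgeR's quasi-likelihood test).

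The remaining 4 long non-coding RNAs, TMEM30A-DT, FAM88F, ENSG00000254973 and ENSG00000228137, had 8 to 17 reads in each AG-205 library and 0 to 5 in each DMSO library. TMEM30A-DT shares 33.8% of its exon length with FILIP1 and ENSG00000254973 shares 3.45% with IQANK1, both on the opposite strand. ABI3 (5.77%, with GNGT2) and CGREF1 (17.7%, with KHK) also overlap a gene of the other strand. Per kilobase of exon, the highest HEC-1A levels with AG-205 were those of short non-coding transcripts, ENSG00000228137 at 2.58, ENSG00000278952 at 2.53 and TPSP2 at 2.28 CPM per kb, and the lowest was that of TMEM30A-DT at 0.0839 CPM per kb.

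The limits of the selection cut through a continuous range of counts. At the inner edge stood GAS6, TP53INP2, SCTR-AS1 and ENSG00000228137 with 9 DMSO reads, and RNF223, CGREF1, CEND1, FFAR1, TMEM30A-DT and S1PR4 with 8 reads in their lowest AG-205 library. Just outside were 5 genes with 10 DMSO reads. PRUNE2 was the highest of them, with 2, 8 and 0 DMSO reads and 152, 187 and 60 with AG-205, followed by DYNLT4 with 15, 11 and 8 and LRRC32 with 12, 14 and 8 reads with AG-205. Also outside were 14 genes with 7 reads in their lowest AG-205 library, among them ENSG00000272512 with 39, 30 and 7 reads and ENSG00000260710 with 24, 13 and 7 reads. When the HEC-1A libraries were scaled to the same size, 25 genes met the limits, and 14 of the 21 were among them. Without AG-205 replicate 3, 123 genes met them, the 21 included.

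In T-HESC the same genes ranged from no read to 7536 reads in a library, as the plot of T-HESC counts shows. No read was found in any of the 6 T-HESC libraries for 7 genes, RNF223, CGREF1, SCTR-AS1, ENSG00000254973, FAM88F, TPSP2 and FFAR1. A count of 0 allows up to 3 reads, or 0.226 to 0.3 CPM in a T-HESC library. Another 4 genes, PRDM16, S1PR4, ENSG00000278952 and ENSG00000278998, had 1 to 7 reads over the 6 libraries, 6 genes had 10 to 99, and 4 had at least 100. With DMSO, the mean level was higher in T-HESC than in HEC-1A with AG-205 for 5 genes, GAS6, TP53INP2, RCAN2, CEND1 and ABI3. The same selection made in T-HESC found 11 genes, among them the hormone precursor AGT and the transcription factor SOX9, and 0 of these were in the HEC-1A group, while the mirrored selection found 7. LINC02154, a long non-coding RNA among the 11, came close in HEC-1A too, with 2, 1 and 0 reads with DMSO and 18, 17 and 6 with AG-205.

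**Figure D2:**
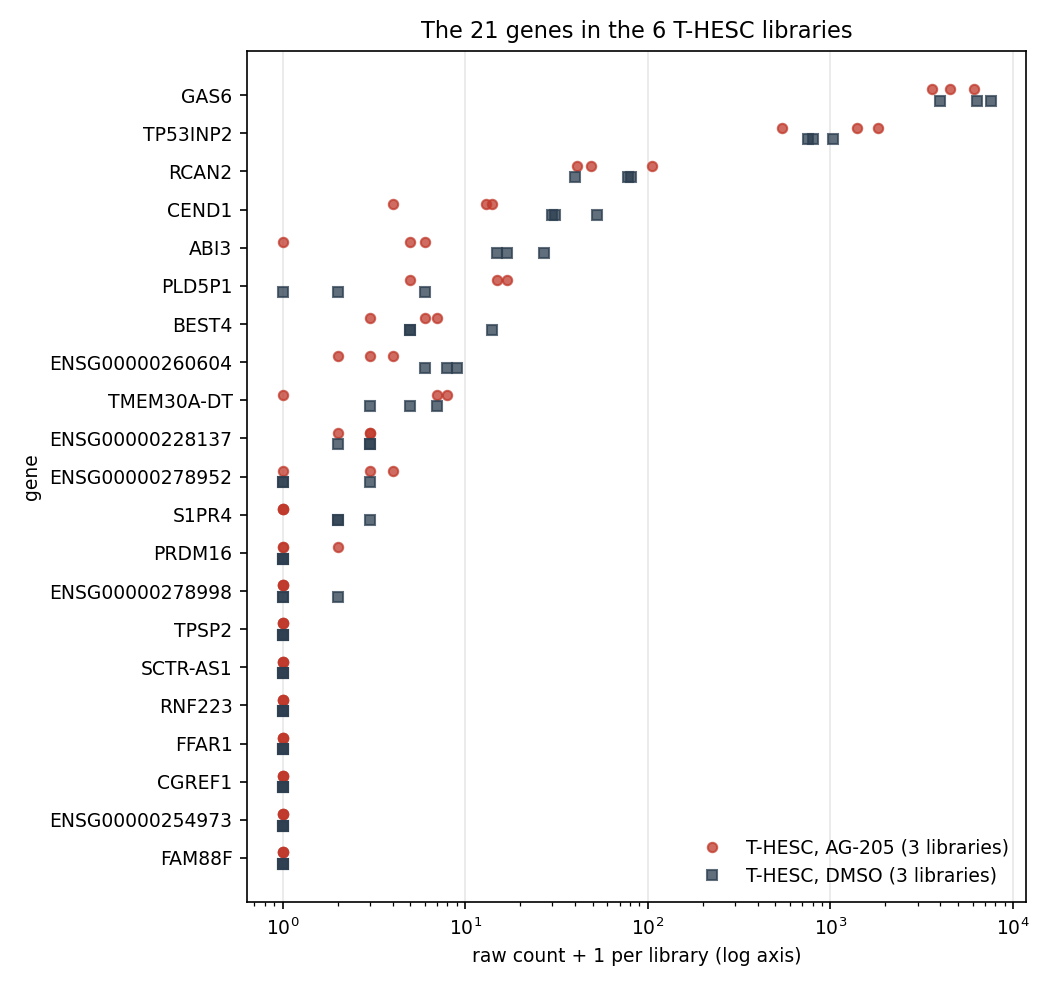
Raw count plus 1 of each of the 21 genes in the 6 T-HESC libraries on a log axis, with circles for the 3 AG-205 libraries and squares for the 3 DMSO libraries, set slightly apart in height. The 7 lowest genes have no read in any library, and GAS6 and TP53INP2 have at least 539 in all of them.

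None of the genes passed the test for a change with AG-205 in T-HESC. The low-count filter kept 5 of the 21 genes among the 13753 tested, and 0 of these were called higher and 0 lower (edgeR quasi-likelihood test, Benjamini-Hochberg adjusted p under 0.05 with a log2 change beyond 1 or -1), where 0.0800% of all genes tested were called higher and 0% lower. At an unadjusted p under 0.05 there were 2 of the 5 genes, CEND1 and ABI3, both on the lower side, and 493 genes higher and 247 lower among all tested. DESeq2 called 101 genes higher and 15 lower, again none of the group. At an unadjusted p under 0.05 it had 3 genes of the group, with CEND1 and ABI3 lower and PLD5P1 higher. PLD5P1, which the edgeR filter had removed, had a log2 fold change of 2.50 (unadjusted p = 0.0353, adjusted p = 0.785, DESeq2). The 5 genes that passed the filter had a median log2 fold change of -0.32, beside 0.02 for all genes tested.

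CEND1 had 52, 30 and 29 reads in T-HESC with DMSO and 3, 12 and 13 with AG-205. Its level was 3.1 ± 0.736 CPM with DMSO and 0.76 ± 0.432 CPM with AG-205 (SD, n = 3), and all AG-205 libraries were below all DMSO libraries. The log2 fold change was -2.02 (SE 0.519, adjusted p = 0.44, edgeR's quasi-likelihood test). A fit of all 12 libraries together, over 16132 genes, gave -2.0 with an adjusted p of 0.041 (edgeR), which is under the threshold. Its filter and its estimate of spread also used the HEC-1A libraries that chose the gene, so it is no independent T-HESC call. Without AG-205 replicate 1 of T-HESC, the library that stood apart, the T-HESC fit gave -1.65 (adjusted p = 0.206, edgeR).

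ABI3 had 14, 16 and 26 reads in T-HESC with DMSO and 0, 5 and 4 with AG-205. Its level was 1.66 ± 0.823 CPM with DMSO and 0.238 ± 0.207 CPM with AG-205 (SD, n = 3), again without overlap. The log2 fold change was -2.71 (SE 0.784, adjusted p = 0.522, edgeR's quasi-likelihood test), and -2.18 (adjusted p = 0.268, edgeR) without AG-205 replicate 1, in which ABI3 had no read. ENSG00000260604, which fell under the filter, had 7, 5 and 8 reads with DMSO and 1, 2 and 3 with AG-205, or 0.58 ± 0.198 and 0.165 ± 0.0825 CPM (SD, n = 3).

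Of the 10 genes with at least 10 reads over the T-HESC libraries, CEND1, ABI3 and ENSG00000260604 were the 3 with every AG-205 library below every DMSO library, and 0 had every AG-205 library above. Among the 18655 genes with at least 10 reads, 4.83% lay below and 5.82% above without overlap. In HEC-1A these 3 genes had been selected for higher counts with AG-205, and the difference between the lines was not tested, because the selection fixed the HEC-1A side. The plot of the genes in all 12 libraries sets both lines side by side.

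**Figure D3:**
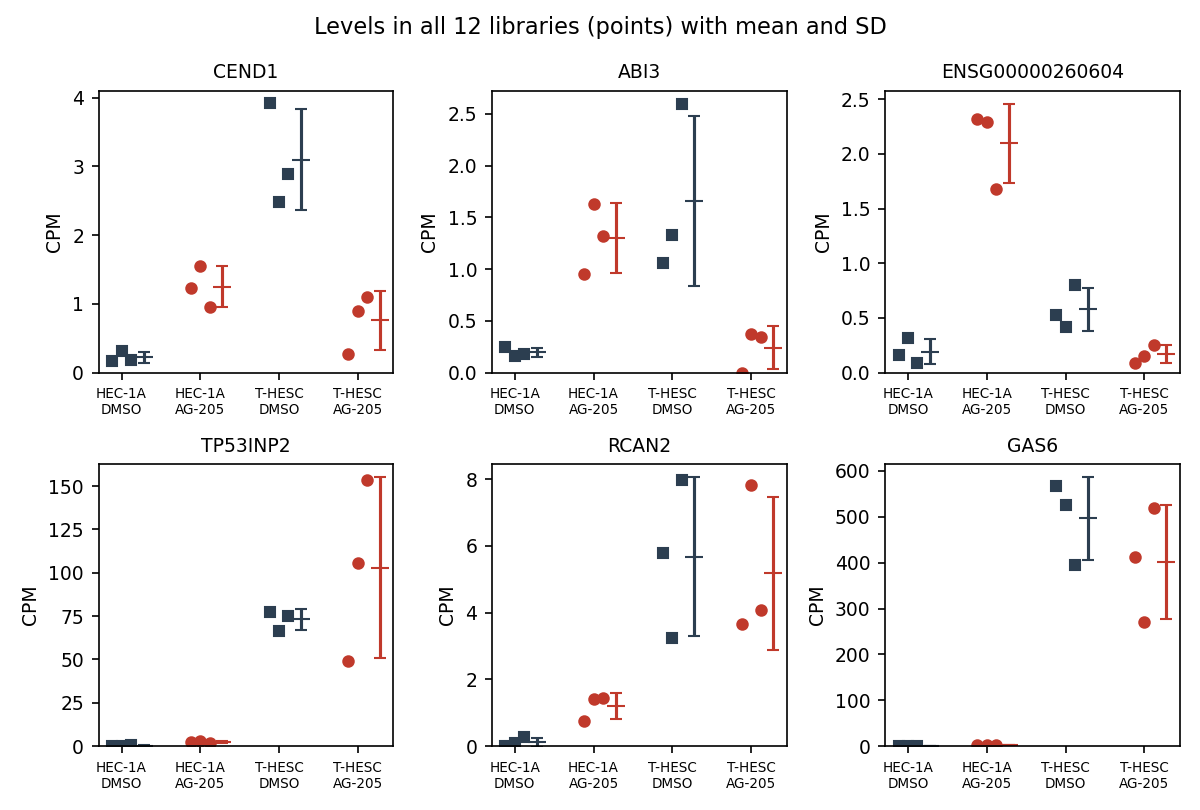
Level in CPM of 6 genes of the group in each of the 12 libraries, with squares for DMSO and circles for AG-205, and the mean and SD of each group of 3 beside its points; each panel has its own axis from 0. CEND1, ABI3 and ENSG00000260604 are lower in all T-HESC libraries with AG-205 than with DMSO, whereas TP53INP2, RCAN2 and GAS6 overlap in T-HESC at levels above those of HEC-1A.

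GAS6 had 7536, 6346 and 3965 reads in T-HESC with DMSO and 4519, 3600 and 6119 with AG-205. Its T-HESC level with DMSO, 496 ± 89.5 CPM (SD, n = 3), was 178 times that of HEC-1A with AG-205. The T-HESC groups overlapped, at 401 ± 124 CPM with AG-205 (SD, n = 3; log2 fold change -0.32, SE 0.304, adjusted p = 0.993, edgeR's quasi-likelihood test).

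TP53INP2 had 1030, 800 and 754 reads in T-HESC with DMSO and 539, 1404 and 1811 with AG-205, so that AG-205 replicate 1 was below and the other two above all DMSO libraries. Its levels were 73.0 ± 5.96 CPM and 103 ± 52.2 CPM (SD, n = 3). The log2 fold change was 0.47 (SE 0.373, adjusted p = 0.993, edgeR's quasi-likelihood test), and 0.80 (SE 0.204, adjusted p = 0.22, edgeR) without AG-205 replicate 1. RCAN2 had 77, 39 and 80 reads with DMSO and 40, 104 and 48 with AG-205, and its change of -0.13 on the log2 scale (SE 0.437, adjusted p = 0.993, edgeR) turned in sign when single libraries were left out.

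PLD5P1 had 1, 5 and 0 reads in T-HESC with DMSO and 16, 14 and 4 with AG-205, and its groups overlapped by replicate 3 of AG-205 and replicate 2 of DMSO. BEST4 had 13, 4 and 4 reads with DMSO and 2, 5 and 6 with AG-205, and TMEM30A-DT had 6, 4 and 2 and 7, 6 and 0. ENSG00000228137 had 1, 2 and 2 reads with DMSO and 2, 2 and 1 with AG-205. These 4 genes were too low for the T-HESC test. S1PR4 had 2, 1 and 1 reads with DMSO and none with AG-205, which is under the limit of 3 reads in each library. Per kilobase of exon, GAS6 was the highest of the group in T-HESC with DMSO at 82.5 CPM per kb, followed by TP53INP2 at 17.5, CEND1 at 1.9, RCAN2 at 1.49 and ABI3 at 0.73, and the ranges of the DMSO libraries overlapped between CEND1 and RCAN2 and between RCAN2 and ABI3.

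The neighbourhood of the genes was examined because non-coding transcripts can lie in the reach of a gene that responds strongly. Within 100 kb of 20 of the 21 genes lay 114 other genes that were tested in HEC-1A. Of these, 15 (13.2%) were called higher with AG-205 in edgeR's quasi-likelihood test, beside 2.58% of all 14122 genes tested, and they lay near 10 of the 21 genes. The neighbours of a gene are not independent of each other, and no test was made of this share. They were called in the same HEC-1A libraries that chose the group. Among the 15, GAS6-AS1 itself met the counts of the selection, so its call is not independent of that selection. GAS6-AS1 and HSD17B7P2 also share exon stretches with GAS6 and PLD5P1, and the share was not computed without them. With a window of 50 kb the share of called genes was 14.3%, and with 200 kb 11.4%. On the lower side, COL12A1 near TMEM30A-DT passed the limits (log2 fold change -1.02, SE 0.152, adjusted p = 0.00101, edgeR). It stood at 44.8 ± 6.13 CPM with DMSO and 21.8 ± 4.73 CPM with AG-205 (SD, n = 3). Over all genes tested in HEC-1A, 29 were called lower.

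Enzymes and regulators of sterol metabolism were neighbours of 3 non-coding genes. ENSG00000278952 starts 1926 bases downstream of TM7SF2, a sterol reductase of cholesterol synthesis on the same strand, with the gene ZNHIT2 of the other strand in between. TM7SF2 rose from 15.6 ± 1.59 to 174 ± 4.25 CPM (SD, n = 3; log2 fold change 3.48, SE 0.106, adjusted p = 2.23e-09, edgeR), while ZNHIT2 had a log2 fold change of -0.11 (SE 0.115). ENSG00000278998 lies 73925 bases from INSIG1, which retains the sterol sensor SCAP in the endoplasmic reticulum and rose from 34.3 ± 1.63 to 320 ± 43.2 CPM (SD, n = 3). INSIG1-DT lies slightly nearer and was not called (log2 fold change 0.66, SE 0.258, adjusted p = 0.125, edgeR). ENSG00000228137 lies inside MCM3AP and MCM3AP-AS1, 18066 bases from LSS, the enzyme that forms lanosterol, which rose from 53.7 ± 2.45 to 316 ± 50.7 CPM (SD, n = 3). The tested genes nearer to ENSG00000228137 than LSS were not called higher. Their log2 fold changes were 0.78 for MCM3AP-AS1 (adjusted p = 0.0282, edgeR), -0.33 for MCM3AP (adjusted p = 0.12, edgeR) and 0.87 for ENSG00000239415 (adjusted p = 0.0108, edgeR). By position and strand, TM7SF2 is transcribed towards ENSG00000278952, whereas INSIG1 and LSS are transcribed away from their non-coding neighbours. Whether reads ran on from TM7SF2 was not tested.

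For GAS6, RNF223 and TPSP2 the nearest tested gene was called higher, and PLD5P1 overlaps both HSD17B7P2, which was called, and ZNF37A, which was not (log2 fold change -0.11, SE 0.102). GAS6 overlaps GAS6-AS1, which changed by 6.53 on the log2 scale, from 0.0299 ± 0.0518 to 3.4 ± 1.41 CPM (SD, n = 3). GAS6-AS1 is itself a gene that met the counts and was left out by name, so its change is described without a test. RNF223 lies 1612 bases from ENSG00000217801 (1.8, SE 0.316, adjusted p = 0.00315, edgeR). TPSP2 lies 5517 bases from ENSG00000260710 (3.68, SE 0.633, adjusted p = 0.00277, edgeR), one of the genes that missed the selection by a single read. RNF223 also had HES4 (1.73) and ENSG00000272512 (4.06) within 100 kb, and BEST4 had DYNLT4 (1.70) and BTBD19 (1.29), so that 3 genes from just outside the limits lay near members.

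The other called neighbours were ENSG00000255142 near CEND1 (log2 fold change 1.3), FTCD near ENSG00000228137 (1.9), NRBP2 near ENSG00000254973 (1.1) and BAIAP3 near TPSP2 (1.24). For 7 of the 12 protein-coding members no gene within 100 kb was called higher. The nearest tested genes of PRDM16 (ARHGEF16, log2 fold change -0.28), CGREF1 (KHK, -0.13), TP53INP2 (NCOA6, -0.08), ABI3 (ZNF652, 0.06) and S1PR4 (NCLN, -0.31) were on either side of 0. The gene 541 bases upstream of FFAR1, CD22, changed by 0.71 on the log2 scale (SE 0.118, adjusted p = 0.00222, edgeR), which did not reach the fold limit.

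**Figure D4:**
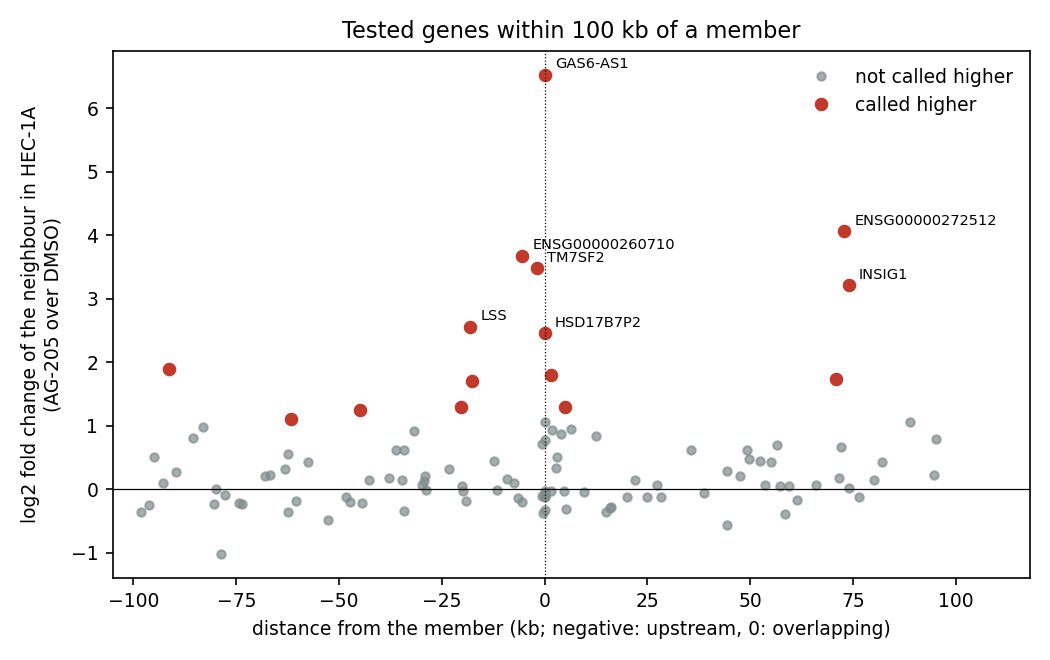
Log2 fold change in HEC-1A, AG-205 over DMSO, of the 114 tested genes within 100 kb of a member against their distance in kb, negative for upstream and 0 for overlapping. Red points are the 15 genes called higher and grey points the rest; the highest ones, GAS6-AS1, ENSG00000272512, ENSG00000260710, TM7SF2, INSIG1, LSS and HSD17B7P2, are named, and they stand on both sides of 0.

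Marker lists of other tissues held genes as low as the group that did not meet the selection. The selection took 0.203% of the 10336 genes with 1 to 9 DMSO reads, so lists of this size could hold 0 whatever their tissue. No DMSO read at all was found for 8 of the leukocyte and 10 of the germ line markers. With AG-205, at most 9 summed reads were left for 9 leukocyte, 10 germ line and 8 muscle markers, so a few rose past that limit. With at most 9 reads in HEC-1A with DMSO were 11 of 14 leukocyte markers, 6 of 13 neuronal, 13 of 13 germ line, 9 of 10 muscle, 12 of 13 liver and gut, 8 of 10 epidermis and 6 of 6 endothelial markers, and 0 of the genes in these lists met the selection. In T-HESC, 4 of the neuronal markers, 3 of the leukocyte markers, 1 each of the muscle, epidermis and endothelial markers and 0 of the germ line and of the liver and gut markers were high enough to be tested, and 0 of those tested were called. Because GAS6, TP53INP2 and RCAN2 had more reads in T-HESC than in HEC-1A, the 11 stromal markers are given beside them: in HEC-1A they summed to 103 to 152 CPM with AG-205 and to 80.0 to 94.1 CPM with DMSO. S100A4 carried most of this sum, with 1068, 1175 and 921 reads with AG-205 and 753, 678 and 647 with DMSO. VIM had 23, 31 and 19 reads with AG-205 and 23, 33 and 13 with DMSO, COL1A1 had 80, 68 and 41 and 73, 40 and 40, and TWIST1 had 0, 0 and 1 and none. The conditions overlapped for VIM and COL1A1.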

How the data were processed

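Polyadenylated RNA of 12 cultures, HEC-1A and T-HESC with AG-205 or DMSO, was sequenced, with 3 libraries in each of 4 groups taken from the labels. Per the submitters' notes, the authors used Trimmomatic 0.38 for trimming and HISAT2 2.1.0 for alignment to GRCh38. They counted reads per gene with featureCounts of Subread 2.0.0 on Ensembl 94, and deposited raw counts without normalization. Handling of strand and of reads that match several places is not given in the sources used here. The members and gene lists were chosen with earlier results of these data known. Members were selected on raw counts, so that library size matters. Positions came from GENCODE 44, with no model for 528 genes, and promoters from RefSeq. Each line was tested with edgeR 4.0.16 in R 4.3.3 (TMM, filterByExpr, quasi-likelihood test, Benjamini-Hochberg), in place of the authors' DESeq2, which at version 1.42.0 was an alternative, beside other scalings, filters, a replicate block, 1 fit of the 12 libraries and leaving out single libraries. The scripts were tested on simulated data. Values in every library were given for the 12 members highest in HEC-1A with AG-205, the 8 highest in T-HESC and those at the limits, and other members were summarised or added. Neighbours named were those called higher or nearest, and TM7SF2, INSIG1, LSS, ENSG00000239415, HSD17B7P2, ZNF37A, COL12A1, AGT, SOX9 and LINC02154 were chosen after their values were seen, as were the 50 and 200 kb windows. The chi-square per degree of freedom between libraries of the same group was 1.79 to 207, so none was a copy. Nothing says which AG-205 and DMSO cultures share an experiment, and p-values measure the spread between these cultures. With 3 libraries against 3 an exact permutation test cannot go below p = 0.1.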

Additional observations from a re-analysis of the deposited data

Results flagged for a closer look

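For CEND1, ABI3, ENSG00000260604 and S1PR4, every T-HESC library with AG-205 was below every T-HESC library with DMSO, while in HEC-1A the selection had required higher reads with AG-205. These are 4 of the 14 genes of the group with any T-HESC read, and the conditions overlapped for the other 10, among them PLD5P1, whose pooled T-HESC ratio of AG-205 over DMSO was 5.56. None of the 4 passed the main T-HESC test: CEND1 and ABI3 had adjusted p values of 0.44 and 0.522 (edgeR's quasi-likelihood test), and the other two were too low to be tested. The difference between the lines was not tested, since the HEC-1A counts chose the genes. In T-HESC the mean level with AG-205 minus that with DMSO was -2.34 CPM for CEND1, -1.42 CPM for ABI3, -0.415 CPM for ENSG00000260604 and -0.111 CPM for S1PR4. S1PR4 had 2, 1 and 1 reads with DMSO and none with AG-205, under the limit of 3 reads in each library, so that no direction can be read from it. Among the 10 genes of the group with at least 10 T-HESC reads, 3 lay below without overlap, beside 4.83% of all such genes.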

How the results depend on the processing

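Depth limited these genes: with at most 99 reads over 3 libraries, a change of a few reads moved a gene over the limits. The number of genes selected was 5 with at most 5 DMSO reads, 63 with at most 15, 6 with at least 12 reads in each AG-205 library, and 25 to 123 when an AG-205 library was left out, the most without replicate 3, the smallest. In T-HESC the main counts were 11 genes higher and 0 lower. DESeq2 gave 101 and 15, no filter on low counts 145 and 36, 1 fit of all 12 libraries 133 and 27, and leaving out single libraries 0 to 69 and 0 to 3. In the fit of 12 libraries 1 member, CEND1, was called lower and 4 had an unadjusted p under 0.05, against 1 with a mean of at least 1 CPM. Of these 4, 3 were on the lower side and PLD5P1 was on the higher side. That fit held 17 members, against 5 in the main fit, because its filter also used the HEC-1A libraries that chose them. Its member counts therefore do not rest on T-HESC alone. The log2 fold change of CEND1 was -2.0 in that fit, and ranged from -2.35 to -1.65 over all settings. That of RCAN2 ranged from -0.585 to 0.179 when a library was left out, and turned to 0.06 and 0.02 without AG-205 replicate 1 or 3 and to 0.18 without DMSO replicate 3 of T-HESC. The causes were not tested. The replicate numbers showed no clear pairing of the libraries, with correlations of same-numbered deviations from -0.528 to 0.215 in T-HESC. The highest correlation in T-HESC, 0.694, was between AG-205 replicate 2 and DMSO replicate 3. With 3 libraries per group, such correlations cannot tell whether cultures were paired. The replicate block gave 9 genes higher and 0 lower, none of them members. Other results kept their direction and their side of the threshold.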
